A study of Homo sapiens with 8 samples.

Results

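Small nuclear RNAs (snRNAs), small nucleolar RNAs (snoRNAs) and small Cajal body RNAs (scaRNAs) were taken as the rows that the deposited gene tables mark with the biotype snRNA, snoRNA or scaRNA, which gave 59 of 17912 genes. The symbol prefix placed 7 of them among the box C/D snoRNAs (SNORD), 16 among the box H/ACA snoRNAs (SNORA), 8 among the scaRNAs (SCARNA) and 17 among the RNU or RNVU genes. The remaining 11 had no such prefix and comprised RN7SK, 1 U1 row, 3 U2 rows, 5 U3 rows and a gene without a symbol. SCARNA10 and SCARNA12 had the biotype snoRNA and were kept with the scaRNAs by their symbols, and RNU105B and RNU105C had the biotype snoRNA although their symbols start with RNU. The cells were of NKM-1, a human line from a myeloid leukemia that the labels call wildtype, in 4 libraries treated with the solvent DMSO and 4 treated with SF153 at 30 uM, all for 48 h. The series calls SF153 an inhibitor of UHM splicing factors, where UHM stands for U2AF homology motif, a protein domain through which factors at the start of splicing bind each other. The labels number 2 batches, and both treatments had 2 libraries in each. A library is named here by its batch and then its number, as in SF153 2.1. Whether the libraries of 1 treatment and batch came from separate cultures is not stated, and the spread that the p-values rest on may be technical.

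Box C/D snoRNAs guide the methylation of ribose in ribosomal RNA, and box H/ACA snoRNAs guide the conversion of uridine to pseudouridine. A few of them, among them U3 and U17, instead help to cut the ribosomal RNA precursor. The scaRNAs carry the same boxes and guide the modification of the spliceosomal snRNAs in Cajal bodies, which are small nuclear bodies where snRNAs mature. Most human snoRNAs and scaRNAs lie within introns of other genes and are trimmed from the excised intron, whereas U3, the spliceosomal snRNAs and 7SK are transcribed from promoters of their own.

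The sequences of the members on which the results turn are printed as DNA letters from the GENCODE release 29 transcripts on GRCh38, so that T stands for U. The first pair are box C/D snoRNAs that moved in opposite directions, SNORD17 and the U3 gene SNORD3A (the shorter of its annotated transcripts). Capitals mark the C box letters TGATGA and the D box letters CTGA within the last 15 bases. SNORD3A lies at chr17:19188016-19188714 on the plus strand and SNORD17 at chr20:17962710-17962946 on the minus strand.
SNORD3A: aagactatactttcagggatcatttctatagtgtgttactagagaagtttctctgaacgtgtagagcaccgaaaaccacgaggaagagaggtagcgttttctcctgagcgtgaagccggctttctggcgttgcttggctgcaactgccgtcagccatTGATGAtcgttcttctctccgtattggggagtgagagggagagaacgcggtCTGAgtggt
SNORD17: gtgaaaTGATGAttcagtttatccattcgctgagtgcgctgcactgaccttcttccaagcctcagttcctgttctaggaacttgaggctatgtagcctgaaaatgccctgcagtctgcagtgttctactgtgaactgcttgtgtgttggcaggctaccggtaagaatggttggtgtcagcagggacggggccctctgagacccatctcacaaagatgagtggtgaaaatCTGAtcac

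The U17 snoRNAs SNORA73A (chr1:28507366-28507571) and SNORA73B (chr1:28508559-28508762), both on the plus strand, are shown because both were higher with SF153 and share most of their sequence. They were 93.2% identical, with 14 single-base differences counting gaps, and capitals mark the ACA letters 3 bases from the end.
SNORA73A: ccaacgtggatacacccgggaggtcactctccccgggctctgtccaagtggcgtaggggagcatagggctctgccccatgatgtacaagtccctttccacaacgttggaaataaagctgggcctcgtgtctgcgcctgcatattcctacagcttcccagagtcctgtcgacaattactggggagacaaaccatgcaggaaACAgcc
SNORA73B: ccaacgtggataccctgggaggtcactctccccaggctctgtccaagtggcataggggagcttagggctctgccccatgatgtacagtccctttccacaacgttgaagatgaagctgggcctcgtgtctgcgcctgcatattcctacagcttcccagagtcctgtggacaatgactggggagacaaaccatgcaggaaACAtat

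SCARNA5 (chr2:233275727-233276002) and SCARNA6 (chr2:233288676-233288940), both on the plus strand within ATG16L1, had the largest increases among the scaRNAs. Capitals mark the C box letters TGATGA near their starts, and the sequences were 64.8% identical.
SCARNA5: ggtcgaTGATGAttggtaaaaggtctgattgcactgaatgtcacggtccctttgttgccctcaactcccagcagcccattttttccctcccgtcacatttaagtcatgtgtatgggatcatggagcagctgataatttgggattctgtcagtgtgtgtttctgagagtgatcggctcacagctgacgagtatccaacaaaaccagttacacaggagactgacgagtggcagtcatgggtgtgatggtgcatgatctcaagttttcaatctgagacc
SCARNA6: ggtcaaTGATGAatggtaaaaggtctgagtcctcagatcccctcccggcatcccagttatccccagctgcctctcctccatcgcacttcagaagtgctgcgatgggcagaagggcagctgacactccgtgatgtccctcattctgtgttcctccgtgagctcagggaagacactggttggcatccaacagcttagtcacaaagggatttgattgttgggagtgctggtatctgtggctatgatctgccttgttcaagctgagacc

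RNU2-1 (chr17:43233787-43233977, minus strand) encodes U2, the snRNA that pairs with the intron branch site. It is shown because 3 further rows carried the identical sequence, which decides how its values can be read. Capitals mark the branch site recognition letters GTAGTA and the Sm site letters ATTTTTG, where the ring of Sm proteins assembles.
RNU2-1: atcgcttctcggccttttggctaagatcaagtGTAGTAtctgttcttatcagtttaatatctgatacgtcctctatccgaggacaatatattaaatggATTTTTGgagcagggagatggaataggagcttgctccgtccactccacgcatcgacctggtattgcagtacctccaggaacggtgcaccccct

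The deposited values are a TPM-type signal, a length-corrected share of each library, whose columns summed to between 828381 and 1027119. The read depth is unknown. Of the markers of myeloid leukemia cells, PTPRC (lowest 202.8, highest 245.9 over the 8 libraries), MPO (420 to 763), CD33, SPI1, CEBPA, CSF1R and LYZ were listed and ANPEP was not, and none of the 10 markers of T cells, B cells, erythroid cells, epithelium and fibroblasts was listed. In bulk RNA, fewer cells of a type and less RNA per cell cannot be told apart. Libraries differed in composition. Protein-coding genes held 46.5% to 50.9% of the signal in the DMSO libraries and 36.7% to 41.4% in the SF153 libraries. RN7SK held 18.7% of SF153 1.1, 18.2% of SF153 1.2 and 11.4% to 13.9% elsewhere, and mitochondrial genes held 16.8% in both SF153 libraries of batch 2 and 9.17% to 9.92% elsewhere. The part of these shifts in the results was not tested. Values were therefore also scaled to the sum of the nuclear protein-coding genes, which raised the median difference over all genes by 0.39 (log2).

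Most called scaRNA and snoRNA genes were higher with SF153, and the main U3 genes were lower. Of the 59 genes, 45 had a mean signal of at least 1 and were tested, 10 rose, 3 fell and 32 did not pass limma's test at a Benjamini-Hochberg adjusted p below 0.05 over all 15542 genes tested. Over all genes tested, 13.0% were higher and 24.3% were lower by the same rule. The 10 that rose were 6 scaRNAs, the U17 genes SNORA73A and SNORA73B, and the box C/D genes SNORD17 and SNORD3C. The 3 that fell were the U3 genes SNORD3A, SNORD3B-1 and SNORD3B-2. All 4 SF153 libraries lay above all 4 DMSO libraries for 11 tested members and below them for 3, against 13.2% and 23.6% of all genes. The median log2 difference was 0.40 over the 45 members and -0.03 over all genes. With the libraries of a treatment and batch averaged, which leaves 2 values a group, 4 members were higher and 2 lower, against 5.86% and 16.2% of all genes, and 6 of the 13 calls remained: SNORA73A, SNORA73B, SCARNA5, SCARNA7, SNORD3B-1 and SNORD3B-2. Scaled to protein-coding genes, 13 of 44 tested members were higher and 1 was lower, against 42.2% and 11.3% of all genes. Both shares were then below those of all genes, while the median log2 difference was 0.80 for the members and 0.36 for all genes.

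**Figure D1:**
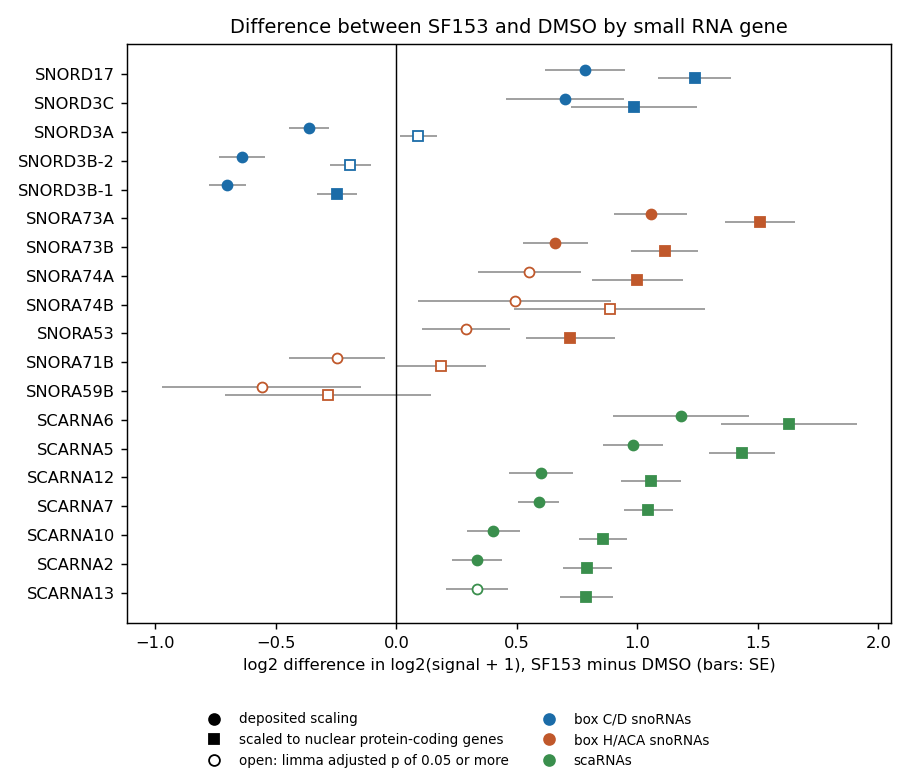
Log2 difference between SF153 and DMSO (4 libraries each, x axis, on log2(signal + 1)) for the box C/D, box H/ACA and scaRNA genes above 0 in all 8 libraries, with bars for the standard error; circles use the deposited scaling and squares the scaling to nuclear protein-coding genes, and open symbols have a limma adjusted p of 0.05 or more. SNORD3B-1 and SNORD3B-2 lie left of 0 under both scalings, SNORD3A crosses from -0.36 to 0.09, and the scaRNAs lie right of 0 under both.

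The 58 members without RN7SK together held 0.932%, 0.912%, 0.879% and 0.925% of the signal in DMSO libraries 1.1, 1.2, 2.1 and 2.2. In the SF153 libraries they held 1.31%, 1.29%, 1.34% and 1.27% in the same order. Every SF153 library was above every DMSO library, and both batches gave similar shares. These shares divide by each library's column sum. Undivided, the signal summed to 13398, 12963, 11132 and 10593 in the SF153 libraries and to 8909 to 9499 in the DMSO libraries. Detection was sparse beyond the abundant genes. Of the 59 members, 33 were listed at 0 in 4 or more libraries, 21 were above 0 in all 8 and 19 had a mean of at least 40.

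Most scaRNAs, the guides for modification of spliceosomal snRNAs, rose. Of 8 tested, 6 were higher and 0 lower in limma's test, against 13.0% and 24.3% of all genes, with 7 higher and 0 lower at an unadjusted p below 0.05 and a median log2 difference of 0.60. SCARNA13 and SCARNA16 did not pass. With averaged libraries 2 of the 8 were higher (5.86% of all genes), and in batch 2 alone 3 were (6.17% of all genes). Their summed signal was 6934, 6804, 6843 and 7055 in the DMSO libraries and 10332, 9798, 8413 and 8428 in the SF153 libraries. The groups did not overlap, and the SF153 libraries of batch 1 were the highest. Of the summed signal, SCARNA2 alone held more than the other scaRNAs together in every library.

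SCARNA5 and SCARNA6, which combine box C/D and box H/ACA parts in 1 molecule, changed most. SCARNA5 measured 219, 181, 266 and 274 in the DMSO libraries and 485, 463, 447 and 442 in the SF153 libraries. All SF153 values exceeded all DMSO values, and the log2 difference was 0.98 ± 0.12 (SE, n = 4 a group, limma adjusted p = 0.000277). SCARNA6 measured 23.2, 33.5, 48.2 and 66.9 with DMSO and 114.01, 101, 80.7 and 76.3 with SF153. Its groups did not overlap either, although the DMSO libraries of batch 2 came close to the SF153 libraries of that batch. The log2 difference of SCARNA6 was 1.18 ± 0.28 (SE, limma adjusted p = 0.00893). With averaged libraries its limma adjusted p was 0.0656, and without both SF153 libraries of batch 1 its call was also lost.

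SCARNA7, the box C/D scaRNA U90 that guides methylation of U1, measured 446, 440, 462 and 550 with DMSO and 704, 722, 679 and 744 with SF153. The groups were separate in both batches, with a log2 difference of 0.59 ± 0.08 (SE, limma adjusted p = 0.000559). SCARNA12 (U89) measured 432, 412, 522 and 469 with DMSO and 833, 783, 625 and 567 with SF153. It was higher by 0.60 ± 0.13 on the log2 scale (SE, limma adjusted p = 0.00598), with the SF153 libraries of batch 1 well above those of batch 2, and its limma adjusted p with averaged libraries was 0.0798.

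SCARNA10 (U85), which guides both methylation and pseudouridylation of U5, measured 765, 868, 862 and 799 with DMSO and 1228, 1203, 896 and 1055 with SF153. The groups did not overlap, although SF153 2.1 lay close to the DMSO range. The log2 difference was 0.40 ± 0.11 (SE, limma adjusted p = 0.0163), and the call was lost with averaged libraries (limma adjusted p = 0.148) and without both SF153 libraries of batch 1. SCARNA2, a box C/D guide for U2 methylation, had the highest level of the class, 4332, 4153, 3931 and 4176 with DMSO and 5841, 5486, 4899 and 4777 with SF153. All SF153 libraries were higher, by 0.34 ± 0.10 on the log2 scale (SE, limma adjusted p = 0.0288). This call was lost without DMSO 1.2, DMSO 2.1, DMSO 2.2, SF153 1.1 or SF153 1.2, with averaged libraries (limma adjusted p = 0.408) and with quantile normalization (0.11, limma adjusted p = 0.541).

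SCARNA13 (U93), a tandem box H/ACA scaRNA, measured 717, 698, 751 and 709 with DMSO and 1115, 1030, 763 and 767 with SF153. The SF153 libraries of batch 1 stood well above the rest, and those of batch 2 lay just above the DMSO range. Its log2 difference of 0.33 did not pass the test (limma adjusted p = 0.0682). It passed with batch as a replicate block (limma adjusted p = 0.0348) and without SF153 2.1 or SF153 2.2, but not with averaged libraries (limma adjusted p = 0.278). SCARNA16 was at 0 in 3 libraries and between 10.8 and 22.9 in the other 5, and was not called.

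**Figure D2:**
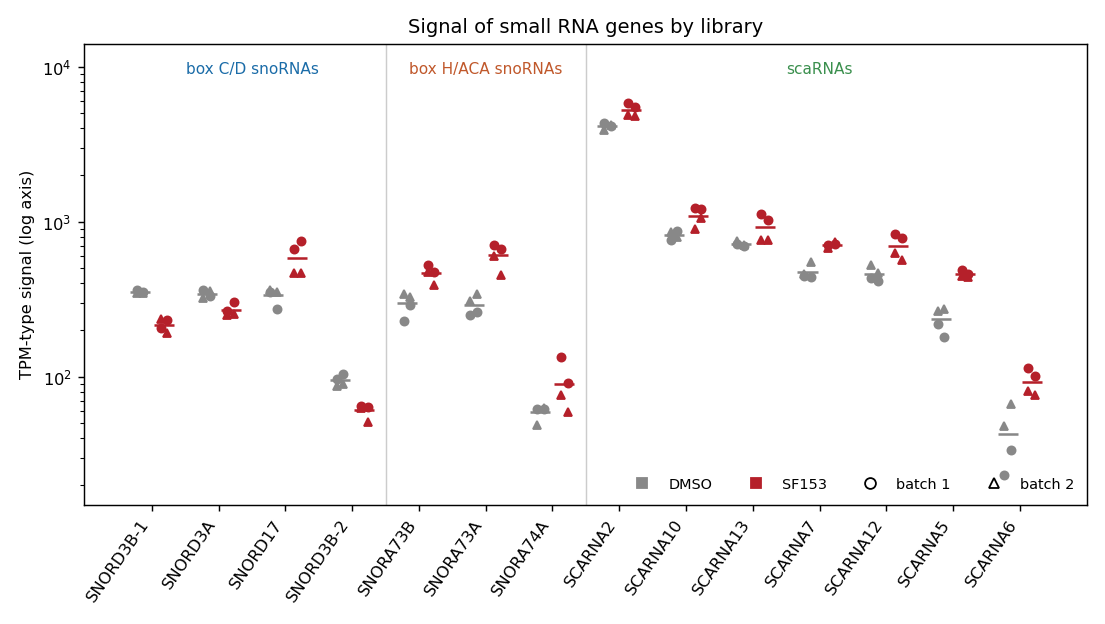
TPM-type signal (log y axis) of the box C/D, box H/ACA and scaRNA genes with a mean of at least 40, by library: gray DMSO and red SF153, circles batch 1 and triangles batch 2, bars the group means (n = 4). SF153 libraries lie above DMSO libraries for SNORD17, SNORA73A, SNORA73B and the 7 scaRNAs drawn, overlap them for SNORA74A, and lie below them for SNORD3A, SNORD3B-1 and SNORD3B-2.

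Among the box H/ACA snoRNAs, both U17 genes rose and the rest did not pass the test. Of 15 tested, 2 were higher and 0 lower in limma's test (3 and 0 at an unadjusted p below 0.05), a share of higher genes near the 13.0% of all genes, with a median log2 difference of 0.29. SNORA73A and SNORA73B encode U17, a snoRNA needed for processing of the small ribosomal subunit RNA. SNORA73A measured 249, 262, 307 and 342 with DMSO and 705, 666, 605 and 451 with SF153. The groups were well apart, by 1.05 ± 0.15 on the log2 scale (SE, limma adjusted p = 0.00055). SNORA73B measured 228.9, 290.5, 340 and 328 with DMSO and 525, 474, 475 and 392 with SF153, a log2 difference of 0.66 ± 0.13 (SE, limma adjusted p = 0.00412). Reads from these similar genes may be split between them. Their sum, which does not depend on that split, was 586.9 ± 89.0 with DMSO and 1073 ± 165 with SF153 (SD, n = 4), without overlap.

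SNORA74A (U19), the next in level, measured 62.0, 62.0, 48.9 and 62.8 with DMSO and 135, 90.8, 76.4 and 59.3 with SF153. SF153 2.2 lay within the DMSO range, and the log2 difference of 0.55 did not pass the test (limma adjusted p = 0.0699). It was called with batch as a replicate block (limma adjusted p = 0.0293) and, at a log2 difference of 0.73, without SF153 2.2, but not with averaged libraries (limma adjusted p = 0.153). SNORA53, SNORA71B, SNORA74B and SNORA59B were above 0 in all libraries and their groups overlapped. SNORA57 was at 15.7 and 30.0 in DMSO 2.1 and 2.2, SNORA81 at 19.2 and 15.5 in the same libraries, and both were listed at 0 in the other 6. SNORA53, SNORA57 and SNORA81 overlap exons of SLC25A3, CSKMT and EIF4A2 on the same strand, so their signal may include reads of those genes. The other 7 SNORA rows were each at 0 in 1 or more libraries and reached at most 23.8, in SNORA23, and none was called.

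The box C/D snoRNAs split into a gene that rose, 3 U3 genes that fell and a weakly expressed U3 copy that was higher. Of 7 tested, 2 were higher and 3 lower in limma's test, against 13.0% and 24.3% of all genes. The median log2 difference was -0.36, and 0.092 when scaled to protein-coding genes. SNORD17, which guides methylation of the large ribosomal subunit RNA, measured 351, 275, 360 and 352 with DMSO and 665, 750, 465 and 465 with SF153. The groups did not overlap, and the SF153 libraries of batch 1 were the highest. The log2 difference was 0.78 ± 0.17 (SE, limma adjusted p = 0.00516), and the call was lost with averaged libraries (limma adjusted p = 0.0608).

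U3 starts the cleavage of the ribosomal RNA precursor. Its gene SNORD3B-1 measured 361, 352, 348 and 347 with DMSO and 206, 234, 234 and 193 with SF153, the tightest DMSO group of the abundant snoRNAs. All SF153 libraries were lower, by -0.70 ± 0.08 on the log2 scale (SE, limma adjusted p = 0.000139). SNORD3B-2 measured 97.0, 105, 87.8 and 90.2 with DMSO and 64.3, 63.9, 63.3 and 50.9 with SF153, a log2 difference of -0.64 ± 0.10 (SE, limma adjusted p = 0.0007). SNORD3A measured 363, 332, 324 and 358 with DMSO and 265, 304, 250 and 253 with SF153. The groups lay closer together than those of SNORD3B-1 but did not overlap, and the log2 difference was -0.36 ± 0.08 (SE, limma adjusted p = 0.00649).

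These falls changed with the scaling. Scaled to protein-coding genes, SNORD3B-1 stayed lower (log2 difference -0.25, limma adjusted p = 0.0299), SNORD3B-2 was at -0.19 (limma adjusted p = 0.0806) and SNORD3A was at 0.09 (limma adjusted p = 0.338), while the median of all genes was 0.36. With quantile normalization SNORD3B-2 stayed lower (log2 difference -0.47, limma adjusted p = 0.00273). SNORD3B-1 was then at -0.08 (limma adjusted p = 0.605) and SNORD3A was higher by 0.33 (limma adjusted p = 0.0102). SNORD3A also lost its call with averaged libraries (limma adjusted p = 0.0845) and when libraries were scaled to the sum without mitochondrial genes and RN7SK. All 3 lay below the median of all genes under the deposited and the protein-coding scaling. These scalings differ by 1 factor a library, which moves all genes nearly alike, so the second adds no separate evidence. With quantile normalization the median of all genes was 0.06. SNORD3A then lay above it, and SNORD3B-1 and SNORD3B-2 lay below it.

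The U3 genes are near copies. In the shorter transcripts, each of 217 bases, SNORD3B-1 and SNORD3B-2 were identical, and SNORD3A differed from SNORD3B-1, SNORD3B-2 and SNORD3C by 1 base each. The authors' counting could thus split reads among them, although the longer gene models, of 581 to 791 bases, differ in length. The level of SNORD3C, 1.13, 1.18, 1.57 and 0.79 with DMSO and 2.14, 1.81, 4.39 and 2.11 with SF153, was a small part of the family. Its log2 difference of 0.70 ± 0.24 (SE, limma adjusted p = 0.0486) lost its call without any 1 library other than SF153 1.2, with batch as a replicate block (limma adjusted p = 0.0527), with averaged libraries, with quantile normalization, and at a higher pseudocount. The 4 SNORD3 genes summed to 822, 789, 762 and 796 with DMSO and 538, 604, 552 and 499 with SF153. The means were 792.2 ± 24.7 and 548.1 ± 43.4 (SD, n = 4), a 1.45-fold lower sum with no overlap.

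A row labelled U3 at chr17:58631641-58631836, whose sequence was 69.3% identical to SNORD3A, measured 93.3, 118, 101 and 85.5 with DMSO and 49.9, 67.0, 132 and 50.2 with SF153. SF153 2.1 was the highest of all 8 libraries, the other SF153 libraries were below the DMSO range, and the gene was not called (log2 difference -0.52, limma adjusted p = 0.171). A second U3 row on chromosome 17, at chr17:44025020-44025223, was at 5.79 and 12.3 in SF153 2.1 and 2.2 and at 0 elsewhere. The 3 further U3 rows, on chromosomes 15 and X, were not tested. SNORD91A and SNORD91B, at most 9.71 in any library, overlapped between groups.

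Ratios between small RNAs of the same library do not change with any factor common to that library. The ratio of SNORD17 to the SNORD3 sum was 0.427, 0.349, 0.473 and 0.442 with DMSO and 1.24, 1.24, 0.843 and 0.932 with SF153. Every SF153 ratio exceeded every DMSO ratio, by 2.52-fold between the means. The ratio of the U17 genes to the SNORD3 sum rose from 0.743 ± 0.128 to 1.96 ± 0.25, and that of the scaRNA sum to the SNORD3 sum from 8.73 ± 0.24 to 16.9 ± 1.7 (SD, n = 4), both without overlap. Members for these ratios were chosen after their values were seen, so the ratios describe the divergence and carry no test. Within families, SNORA73A to SNORA73B went from 0.983 ± 0.095 to 1.29 ± 0.11 and SNORD3A to SNORD3B-1 from 0.979 ± 0.049 to 1.24 ± 0.12 (SD, n = 4), again without overlap. The ratio of SCARNA5 to SCARNA6 was 6.12 ± 2.32 with DMSO and 5.05 ± 0.74 with SF153 (SD, n = 4), and its groups overlapped.

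Neither the RNU and RNVU genes nor the tested U2 rows gave a call. Of the 10 RNU or RNVU genes tested, which include RNU105B of biotype snoRNA, 0 were higher and 0 lower in limma's test, also at an unadjusted p below 0.05, and 16 of the 17 in the class were at 0 in 4 or more libraries. The U2 values show how signal was placed on the identical U2 copies. RNU2-1 measured 340 in DMSO 1.2, 302 in SF153 1.2 and 0 in the other 6 libraries. The U2 row at chr17:43300041-43300231 measured 400 in DMSO 1.1, 337 in DMSO 2.2, 238 in SF153 1.1 and 117.3 in SF153 2.2, and 0 elsewhere. The U2 row at chr17:43277978-43278168 held 298 in SF153 2.1, and the one at chr17:43241180-43241370 was at 0 throughout. Each library with U2 signal therefore had it on 1 of the 4 identical genes. Summed over them, U2 was 400, 340, 0 and 337 with DMSO and 238, 302, 298 and 117.3 with SF153, and the groups overlapped. DMSO 2.1 was listed at 0 for all 4.

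**Figure D3:**
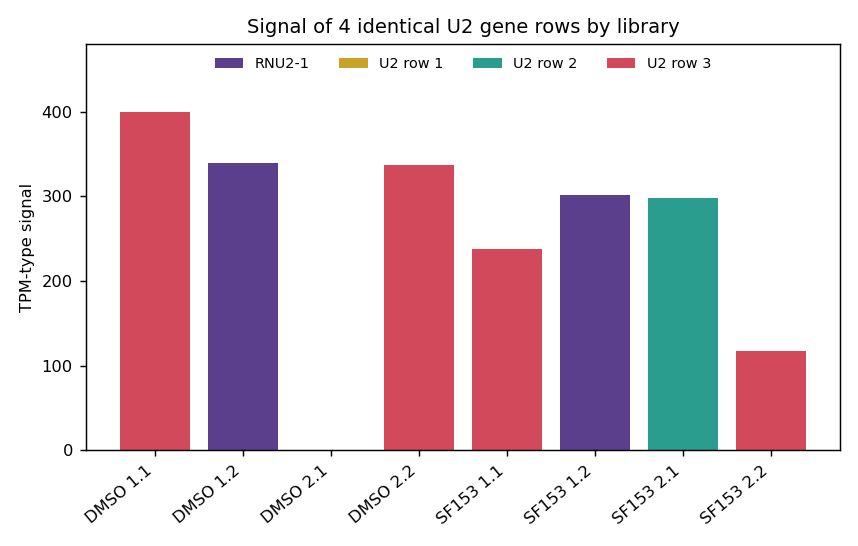
TPM-type signal (y axis, linear from 0) of the 4 genes with identical U2 sequence in each library, stacked and colored by gene; U2 rows 1, 2 and 3 start at 43241180, 43277978 and 43300041 on chromosome 17. Every bar has a single color, and DMSO 2.1 has no bar.

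RNU2-2P, a U2 gene 95.9% identical to RNU2-1, measured 16.9, 46.6, 30.9 and 0 with DMSO and 93.0, 74.3, 30.0 and 35.1 with SF153. The groups overlapped, and the log2 difference of 2.05 was not called (limma adjusted p = 0.157). RNU2-2P overlaps an exon of WDR74 on the same strand, so its signal may include reads of that gene. RNU2-64P had 11.2 in SF153 1.2 and 4.32 and 6.55 in the DMSO libraries of batch 2. U1 was scarcely listed. The U1 row, RNU1-2, RNU1-27P and RNVU1-29 had identical DMSO values of 0.783, 0.809, 0 and 0. RNU1-16P was at 13.4 and 8.38 in SF153 1.1 and 1.2, RNU2-7P at 5.03 and 8.51 in SF153 2.1 and 2.2, and both were at 0 elsewhere. RNVU1-30, RNU1-77P and RNU2-37P were each above 0 in 1 DMSO library, at 14.1, 8.04 and 9.31. The 7 RNU or RNVU genes that were not tested had a mean below 1, and RNU105B was at most 4.46. No gene with a U4, U5 or U6 symbol was among the members, so these snRNAs were not analysed here.

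RN7SK, the 7SK RNA that holds the elongation factor P-TEFb inactive, had the highest signal of all members. It measured 115703, 119245, 122390 and 142857 with DMSO and 190624, 183063, 94245 and 100903 with SF153. The SF153 libraries were the highest in batch 1 and the lowest in batch 2. The log2 difference over all libraries was 0.11 (limma adjusted p = 0.814), made of 0.67 in batch 1 and -0.44 in batch 2.

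Batches gave the same direction for the called members, but the estimated sizes were near equal only for SNORD3B-1 and SNORD3B-2. SNORA73A differed by 1.42 in batch 1 and 0.69 in batch 2 on the log2 scale, SNORD17 by 1.18 and 0.38, SCARNA5 by 1.25 and 0.72, and SCARNA6 by 1.90 and 0.46. Of the U3 genes, SNORD3B-1 differed by -0.70 and -0.71, SNORD3B-2 by -0.64 and -0.64, SNORD3A by -0.29 and -0.44, and SNORD3C by 0.46 and 0.93. The difference between batches was tested by an interaction term, added after the data were seen. It passed in 8 of the 45 members, against 1.15% of all genes, and among the called members for SCARNA12 only (0.94 and 0.27, limma adjusted p = 0.0252). The other 7 are RN7SK, SCARNA13 and 5 genes at 0 in 6 libraries. Column sums and mitochondrial and RN7SK shares moved with the batch of the SF153 libraries as given above. Their part in these differences was not tested.

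**Figure D4:**
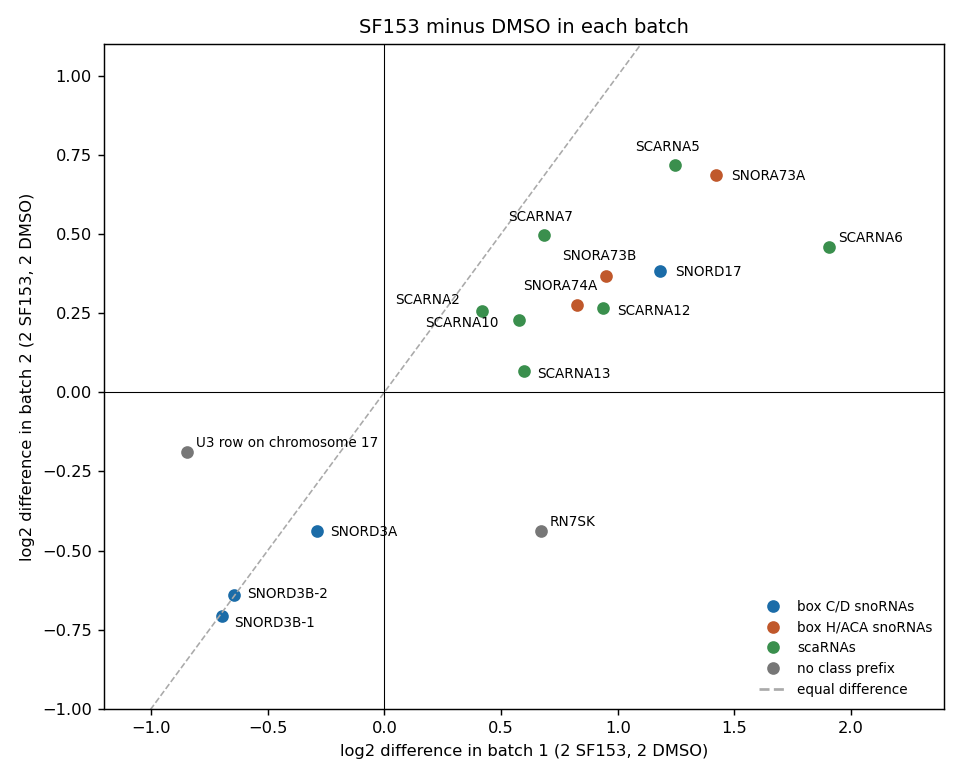
Log2 difference between SF153 and DMSO in batch 1 (x axis) and batch 2 (y axis), 2 libraries of each treatment in each batch, for members above 0 in all libraries with a mean of at least 40; the dashed line marks equal differences. The scaRNAs, SNORA genes and SNORD17 lie right of and below the line in the upper right quadrant, SNORD3B-1 and SNORD3B-2 lie on it at the lower left, and RN7SK is at 0.67 and -0.44.

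Most small RNA genes that lie within another gene had a higher log2 difference than that gene. Of 58 members matched to GENCODE release 29, 46 lay within 1 or more other genes on the same strand and 12 lay in none, among them the SNORD3 genes and RN7SK. Over the 36 pairs of a tested member with a tested containing gene, the member's log2 difference was the higher one in 27. Members with a mean of at least 40, a limit chosen after the values were seen, gave 15 of these pairs, from 12 members, some of them overlapping an exon, and the member's difference was higher in 14. In 11 of them the member was called higher, and the containing gene was then higher in 1, lower in 6 and not called in 4. Of all genes, 24.3% were lower. RCC1, SNHG3 and ATG16L1 each entered more than 1 of these pairs, so the counts of pairs are not counts of separate genes.

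SNORD17 lies in an intron of SNX5, a sorting nexin, which went from 135.1 ± 12.4 to 95.3 ± 6.1 (SD, n = 4), a log2 difference of -0.50 (limma adjusted p = 0.00135). SNORA73A and SNORA73B lie in RCC1, the exchange factor of Ran, and in the noncoding gene SNHG3, which differed by -0.58 (limma adjusted p = 0.00369) and -0.19 (limma adjusted p = 0.056). SCARNA12 overlaps an exon of PHB2, a prohibitin, which fell by 1.06 on the log2 scale (limma adjusted p = 6.76e-05), and SCARNA10 lies in NCAPD2, a condensin subunit, which fell by 0.95 (limma adjusted p = 0.000705). ATG16L1, an autophagy gene, was at 34.2 ± 3.3 and 32.6 ± 2.2 (SD, n = 4) while both of its scaRNAs rose. SCARNA7 lies in KPNA4, a nuclear import receptor, which differed by -0.30 (limma adjusted p = 0.0272).

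The 1 pair in which both rose was SCARNA2 and the noncoding gene AL356488.2, whose exon overlaps it on the same strand, so reads of the pair cannot be told apart. The same holds for SNORA73A with an exon of SNHG3 and for SCARNA12 with PHB2. Of the containing genes of called members, scaling to protein-coding genes left PHB2 (-0.61, limma adjusted p = 0.00039) and NCAPD2 (-0.51, limma adjusted p = 0.0205) lower, and SNHG3 (0.27, limma adjusted p = 0.0134) and ATG16L1 (0.37, limma adjusted p = 0.018) became higher, while SNX5, RCC1 and KPNA4 were no longer called. For SNORA74A, the containing gene MATR3 has 1 further row of the same symbol that was not used. Across all 36 tested pairs, which share libraries and in part a containing gene, Pearson's r between the differences of member and containing gene was 0.06.

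**Figure D5:**
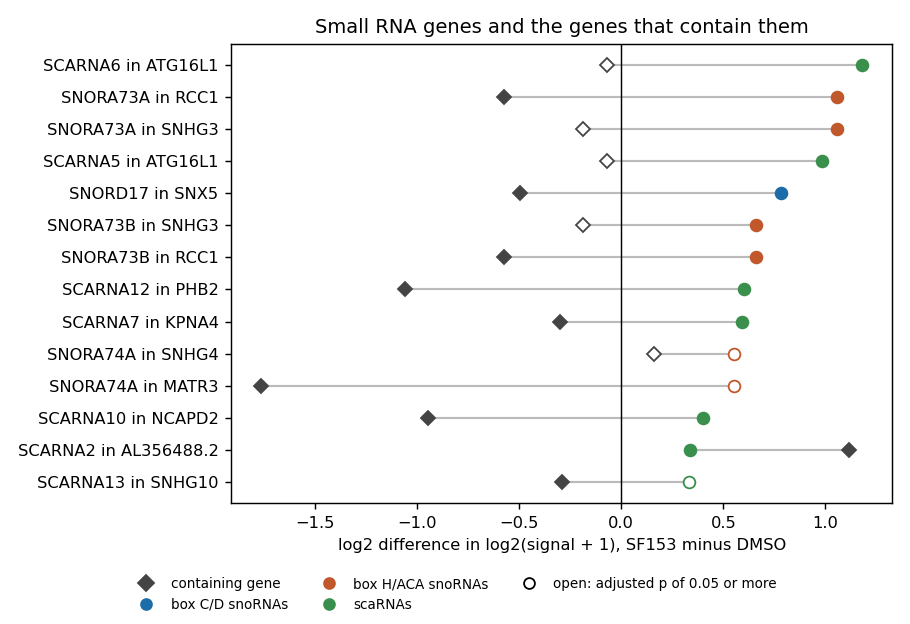
Log2 difference between SF153 and DMSO (4 libraries each, x axis) of box C/D, box H/ACA and scaRNA genes with a mean of at least 40 (circles) and of the gene that contains each (diamonds), joined by a line; open symbols have a limma adjusted p of 0.05 or more. The circle lies right of the diamond in 13 of 14 pairs, SCARNA2 being the exception.

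The members share a feature that the biotype did not select, the length of their annotated gene span from start to end. It was 148 to 791 bases in the members that matched GENCODE release 29, and so at least 140 bases in 100% of the 58. The limit of 140 was not planned and lies just below the shortest member, so the 100% follows from it. Of the 2843 annotated genes of the 3 biotypes that were not listed, 13.1% reached that length and their median was 107 bases. Among members with a transcript sequence, the shortest annotated transcript was below 140 bases in SNORD91A and SNORD91B (95 each) and in SNORA71B (134). The C box letters TGATGA, searched on the transcript strand, were found in 5 of 7 box C/D members, 0 of 15 box H/ACA members and 7 of 8 scaRNAs, and in 77.3% of all SNORD, 3.4% of all SNORA and 44.0% of all SCARNA genes of the annotation. The ACA letters 3 bases from the end were found in 7 of 15 box H/ACA members, against 76.2% of all SNORA genes. The Sm site letters ATTTNTG were found in 11 of 17 RNU or RNVU members. A match in letters is a description only.

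The core proteins of these particles and their assembly factors were mostly lower, in a comparison in which 24.3% of all genes were lower and 13.0% higher. All 4 core proteins of box C/D particles were lower and 0 were higher in limma's test (0 higher at an unadjusted p below 0.05), with a median log2 difference of -0.82 against -0.03 for all genes. FBL, the methyltransferase fibrillarin, went from 76.9 ± 13.0 to 20.4 ± 6.7 (SD, n = 4), SNU13, which binds the folded C and D boxes, from 41.2 ± 3.4 to 19.9 ± 4.6, and NOP58 from 76.7 ± 5.3 to 50.5 ± 4.7. The 6 proteins listed for box H/ACA particles include NAF1 and SHQ1, which act in assembly. Of the 6, 5 were lower and 0 higher (0 higher at an unadjusted p below 0.05), with a median of -1.01. NOP10 went from 89.6 ± 8.5 to 29.5 ± 10.8, NHP2 from 62.0 ± 8.8 to 20.2 ± 5.0, and GAR1 from 14.7 ± 2.7 to 4.96 ± 0.56 (SD, n = 4). These are core subunits that bind beside the pseudouridine synthase DKC1. For FBL, SNU13, NOP58, NOP10, NHP2 and GAR1 no SF153 library reached the DMSO range.

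Of 12 assembly factors, 10 were lower and 0 higher in limma's test (0 higher at an unadjusted p below 0.05), with a median log2 difference of -0.74. The chaperones HSP90AB1 and HSP90AA1 differed by -2.12 and -1.31, and NOLC1, a snoRNP chaperone of nucleolus and Cajal body, by -1.08. Of 18 genes of the Cajal body and the SMN complex, which loads Sm proteins on snRNAs, 8 were lower and 1 was higher (median -0.39). STRAP, a subunit of that complex, differed by -1.29, the snRNA export adaptor PHAX by -1.17, and GEMIN5, which recognizes snRNAs, by -0.80. Of 25 genes of snRNA transcription and 3' processing, 6 were lower and 2 higher (median -0.22), a share of lower genes near the 24.3% of all genes. The Integrator subunits INTS5 and INTS13 differed by -0.86 and -0.81, while the 2 higher genes, the Integrator subunits INTS3 and INTS10, differed by 0.43 and 0.31, and SNAPC2, a subunit of the snRNA promoter factor, by -0.77. Of 14 genes of small RNA 3' end maturation and decay, 9 were lower and 0 higher (0 higher at an unadjusted p below 0.05, median -0.40). NAF1, which was lower, is counted both here and in the box H/ACA list. The exosome cofactor C1D differed by -1.09, the exonuclease XRN2 by -0.74, and the snRNA deadenylase TOE1 by -0.69. Scaled to protein-coding genes, with 42.2% of all genes higher and 11.3% lower, the counts higher and lower were 1 and 2 for box C/D proteins, 0 and 3 for box H/ACA proteins, 2 and 6 for assembly factors, 1 and 2 for the Cajal body list, 10 and 2 for snRNA transcription, and 2 and 2 for maturation and decay. The median of the Cajal body list was then 0.04, that of snRNA transcription 0.22 and that of maturation and decay 0.03.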

How the data were processed

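RNA was sequenced from 8 libraries of NKM-1 cells, 4 with SF153 and 4 with DMSO. Total RNA was depleted of ribosomal RNA by RNase H and DNA oligonucleotides and made into stranded libraries, per the labels' protocols. The deposited values are a signal that the authors normalized, described as both CPM and TPM. Since column sums differ, it is neither in plain form, and no counting interval is given. CASAVA 1.8.2, STAR, Salmon and edgeR and the build GRCh38 are named, without roles, per the submitters' processing notes. The authors' gene filter and annotation release were not given in the sources used here. TPM had been assumed in the design, and its test was kept.

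Differences were tested with limma 3.58.1 (R 4.3.3, intensity trend) on log2(signal + 1), a scale that understates changes of low values, for 15542 genes with a mean of at least 1. Calls required a Benjamini-Hochberg adjusted p below 0.05 over all of them. The script was tested on simulated data with 200 changed genes. Positions, containing genes and sequences come from GENCODE release 29, matched for 58 of 59 members by identifier without version. Containing genes are same-strand genes whose span includes the member.

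The members, lists and tests were chosen with earlier results of these data known. Named within each of the 4 prefix classes were the 4 largest called increases and decreases with the same side in both batches, the 3 highest means, tested spliceosomal snRNA genes and processing snoRNAs, 24 in all, plus up to 3 called genes of each partner list. RN7SK, the U1, U2 and U3 rows, containing genes, INTS3, INTS10, NAF1 and SHQ1 were named after their values were seen. So were RNU105B, RNU105C, SCARNA16, SNORD91A, SNORD91B and the SNORA genes other than SNORA73A, SNORA73B and SNORA74A.

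The labels' batch number pairs the libraries. As a check, the gene-wise differences between batches were correlated between DMSO and SF153 (Pearson's r 0.067), as were deviations from group means between treatments within a batch (mean r 0.026). Alternatives covered pseudocount, filter, scaling, variance trend, batch and libraries left out. Leaving out both SF153 libraries of a batch, and scaling without mitochondrial genes and RN7SK, were added after seeing the data.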

Additional observations from a re-analysis of the deposited data

Results flagged for a closer look

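A library standing apart from the other 3 of its group was looked for in 51 groups of 4, of which chance alone flags about 1 in 20, and 11 were found. Of these, 4 concerned genes above 0 in all libraries. SNORD17 was at 275.1 in DMSO 1.2 against 350.8 to 360.4 in the other DMSO libraries, and SNORA74A at 48.9 in DMSO 2.1 against 62.0 to 62.8. SNORD3B-2 was at 50.9 in SF153 2.2 against 63.3 to 64.3, and SNORD3C at 4.39 in SF153 2.1 against 1.81 to 2.14. In the other 7, 1 library was above 0 and the other 3 of its group were at 0. These were RNU2-1 in DMSO 1.2 (339.9) and in SF153 1.2 (301.7), the U2 row at chr17:43277978-43278168 in SF153 2.1 (297.5), RNU2-64P in SF153 1.2 (11.2), RNU1-77P in DMSO 2.2 (8.04), RNU2-37P in DMSO 2.2 (9.31) and RNVU1-30 in DMSO 1.1 (14.1).

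The difference between SF153 and DMSO itself differed between batches in 8 members, by limma's interaction test with adjustment over all genes. Batch 2 minus batch 1, the log2 differences changed by -1.11 for RN7SK (limma adjusted p = 0.00176), by -0.67 for SCARNA12 (limma adjusted p = 0.0252) and by -0.53 for SCARNA13 (limma adjusted p = 0.0153). The other 5 genes were above 0 in 2 libraries of 1 treatment and batch. They changed by -4.51 for SNORA57, -4.19 for SNORA81, -3.54 for RNU1-16P, 3.25 for the U3 row at chr17:44025020-44025223 and 2.92 for RNU2-7P. The causes were not tested.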

How the results depend on the processing

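The depth is unknown and each group has 4 libraries, possibly of 2 samples. The counts of 10 higher and 3 lower members moved by over 1.5 times as follows, and the cause was not tested unless fewer samples or genes entered. Over all members, 4 were higher with averaged libraries (5.86% of all genes). Lower members were 1 with quantile normalization and with protein-coding scaling, 8 in batch 2 alone, 5 without both SF153 libraries of batch 1, and 3 to 5 with 1 library left out, reaching 5 without DMSO 1.1 or DMSO 1.2. Higher box C/D snoRNAs were 1 at a pseudocount of 5 (13.0% of all genes) and at a minimum mean of 5 (15.9% of all genes). They were 1 in either batch alone (6.28% of all genes in batch 1 and 6.17% in batch 2) and 0 with averaged libraries. Without both SF153 libraries of batch 1 or of batch 2 they were 1 (10.3% and 7.44% of all genes). With 1 library left out they were 1 to 2 (9.98% to 11.5% of all genes). Lower ones were 1 with quantile normalization and with protein-coding scaling. Higher box H/ACA snoRNAs were 4 of 15 with protein-coding scaling, a smaller share than the 42.2% of all genes. In batch 1 alone 4 of 12 were higher, against 6.28% of all genes. Lower ones were 3 in batch 2 alone, 1 without both SF153 libraries of batch 1 and 0 to 2 with 1 library left out. Higher scaRNAs were 2 with averaged libraries and 3 in batch 2 alone. Higher snRNAs were 1 in either batch alone and without both SF153 libraries of batch 1, 2 without both of batch 2, and 0 to 1 with 1 library left out, and lower ones 1 in batch 2 alone.

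With batch as a replicate block, 1 box C/D snoRNA was higher (SNORD17), SNORD3C lost its call and SNORA74A and SCARNA13 gained one. The replicate block changed no other call of a named member.

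The direction turned for SNORD3A with quantile normalization (0.33) and protein-coding scaling (0.092). For RNU2-1 it turned with quantile normalization (0.11), protein-coding scaling (0.066), without DMSO 1.2 (2.06), without SF153 1.1, 2.1 or 2.2 (0.64 each) and without both SF153 libraries of batch 2 (2.02). For RNU2-64P it turned with averaged libraries (0.017), in batch 1 alone (1.803), without DMSO 2.2 (0.098) and without both SF153 libraries of batch 2 (0.47). Neither U2 gene was called in these fits.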
